A study of Mus musculus with 4 samples.

Results

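FOXO factors and a set of their target genes were described in RNA-seq libraries of 32Dcl3-Abl1ko cells, a murine hematopoietic line whose Abl1 gene carries CRISPR/Cas9 edits. The genes were chosen by name and comprised the factors Foxo1, Foxo3 and Foxo4 and the targets Cdkn1b, Ccng2, Sesn1, Sesn3, Irs2, Klf2 and Txnip. Of these 10 genes, 9 had a row among the 23756 genes of the deposited tables, and Klf2 was not analysed here. The groups were cells kept with IL-3 (Abl1ko/IL3+, 2 libraries) and cells growing without it (Abl1ko/IL3-, 2 libraries), and all 4 libraries carried the Abl1 knockout. The paper describes the Abl1ko/IL3- cells as IL-3-independent, and obtained growth factor-independent cells by gradual withdrawal of IL-3. How long the sequenced cells had grown without IL-3 is not given there. The sources describe selected knockout clones, but do not tie a clone to a library. The comparison asks whether transcripts under FOXO control, which respond to AKT activity, differed between these groups.

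FOXO proteins are forkhead transcription factors that act below PI3K and AKT. AKT phosphorylates them, whereupon 14-3-3 proteins bind them and hold them in the cytoplasm, so that their target genes are transcribed less. In hematopoietic cells deprived of a growth factor, FOXO proteins can enter the nucleus and switch on genes of cell cycle arrest, stress resistance and apoptosis. Transcript counts measure neither the phosphorylation nor the location of the proteins.

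The libraries held 48953174 to 60382588 counts. Abl1 had 1322 to 2222 counts with IL-3 and 1544 to 2256 without it. The labels name the cells a pre-B-cell, but the 7 pre-B-cell markers with a row summed to 19.0 to 26.1 CPM, mostly from Cd79a and Cd79b. Rag1 and Cd22 had at most 4 and 7 counts in any library, while the myeloid gene Mpo had 28978 to 121109. Levels are given as CPM, the counts scaled to library size with the TMM factors of edgeR, unless FPKM is named, and 3 counts, taken as the floor, correspond to between 0.0465 and 0.0627 CPM, which covers counting error only.

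The libraries of the same group stood apart in markers of several blood lineages. The summed level of 6 mast cell and basophil markers was 1443 and 249.9 CPM in the Abl1ko/IL3+ replicates 1 and 2, and 416 and 442 CPM in the Abl1ko/IL3- replicates. The sum of 6 erythroid markers was 386 and 7461 CPM with IL-3, and 3633 and 1824 CPM without it. Of this sum the globin gene Hba-a1 alone gave 117 and 6745 CPM with IL-3, and 3316 and 1575 CPM without it. The 10 neutrophil granule markers summed to 1207 and 522 CPM with IL-3 and to 1127 and 5675 CPM without it. Ngp alone gave 687 and 240 CPM of this with IL-3, and 610 and 4003 CPM without it. Of the 10 genes, 6 were higher in both Abl1ko/IL3- libraries, against 19.4% of all genes tested. The 8 myeloid progenitor and primary granule markers summed to 2576 and 2308 CPM with IL-3 and to 1574 and 823 CPM without it. Of the 8, only Mpo, with 1879 and 1477 against 908 and 499 CPM, was lower in both Abl1ko/IL3- libraries, and the other 7 overlapped. Of all genes tested, 17.9% were lower without overlap. The part of these lineage genes in the results below was not tested.

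To show where a FOXO protein could bind near the genes measured, the 250 bases before the RefSeq start (GRCm38.p6) were searched on both strands for GTAAACA, the core of the FOXO consensus, and for CAAAACA, the core of the insulin response type. Of 9 windows of 8 genes, 3 held a match, and 8.51% of all 32851 windows of this length held one (3.17% GTAAACA and 5.56% CAAAACA). Foxo4 had no window in the sequences used. The windows of Txnip and Irs2, and 30 bases of that of Ccng2, are given 5′ to 3′ on the strand of the gene, with the match in capitals.
Txnip: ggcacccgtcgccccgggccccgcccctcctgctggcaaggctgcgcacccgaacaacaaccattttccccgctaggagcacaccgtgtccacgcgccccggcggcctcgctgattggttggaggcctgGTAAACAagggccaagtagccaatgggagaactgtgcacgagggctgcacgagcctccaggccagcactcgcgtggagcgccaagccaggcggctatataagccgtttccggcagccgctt
Irs2: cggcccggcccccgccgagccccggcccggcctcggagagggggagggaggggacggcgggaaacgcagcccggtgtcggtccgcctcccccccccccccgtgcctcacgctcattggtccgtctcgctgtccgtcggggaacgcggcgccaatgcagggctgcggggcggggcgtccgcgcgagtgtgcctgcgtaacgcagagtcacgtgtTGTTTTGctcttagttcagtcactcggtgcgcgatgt
Ccng2: gggcgtcgcagactCAAAACAaaaacaagg
The Txnip window (chr3:96557707-96557956, plus strand) held GTAAACA with its first base 121 bases before the start. That of Irs2 (chr8:11008930-11009179, minus strand) held the reverse complement of CAAAACA, 37 bases before the start. This start, at 11008929, lies upstream of the Irs2 gene as counted, whose 5′ end is at 11008458. The bases shown for Ccng2 (chr5:93267543-93267572, plus strand) held CAAAACA, 16 bases before its start. The annotation places the 250 bases searched before Txnip within exons of the antisense gene Gm15441, those before Ccng2 within an annotated exon of Ccng2 itself, and those before Irs2 in no exon. A match describes the letters only. No match was found in the windows of Foxo1, Foxo3, Cdkn1b, Sesn1 and Sesn3, which says only that these letters are not there.

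Of the 3 FOXO factors measured, Foxo3 and Foxo4 made up nearly all transcripts, at like levels per length. Foxo3, on chromosome 10 from 42181841 to 42276752 (GRCm38, as for all positions given), was covered by 6100 and 3551 counts in the Abl1ko/IL3+ replicates, against 3749 and 5243 in those without IL-3. Foxo4 (chromosome X, 101254528 to 101260873) was covered by 2475 and 1791 counts in the Abl1ko/IL3+ replicates, against 1334 and 1665 in those without IL-3. Foxo1 (chromosome 3, 52268336 to 52353221) was hardly detected, with 4 and 4 counts in the Abl1ko/IL3+ replicates, against 4 and 0 in those without IL-3, near the floor, and no fold change is given for it. The mean FPKM of Foxo3 was 9.47 ± 3.61 (SD, n = 2) with IL-3 and 9.94 ± 1.56 without it, that of Foxo4 9.08 ± 2.14 and 7.23 ± 0.551, and that of Foxo1 at most 0.00775 in any library. Foxo1 shares exon bases with the antisense gene Gm20402, and whether reads were counted by strand is not given in the sources used here.

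In CPM, Foxo3 stood at 94.6 and 65.3 with IL-3 and at 78.3 and 90.3 without it, so that both Abl1ko/IL3- libraries lay between the Abl1ko/IL3+ libraries. The log2 fold change of Foxo3, positive where the level was higher in Abl1ko/IL3- cells, was 0.08 (standard error, SE, 0.34; adjusted p = 0.993 in the quasi-likelihood test of edgeR, Benjamini-Hochberg adjusted), and it became -0.17 without Abl1ko/IL3+ replicate 2. Foxo4 stood at 38.4 and 32.9 CPM with IL-3 and at 27.9 and 28.7 CPM without it. The groups did not overlap for Foxo4, and its log2 fold change was -0.33 (SE 0.32, adjusted p = 0.935 in the edgeR test). Of the summed FPKM of the 3 factors, Foxo3 made up 53.1% and 47.7% in the presence of IL-3, against 56.4% and 59.2% in its absence, a difference of 7.35 percentage points, which was 4.63 without Abl1ko/IL3+ replicate 2 and 10.1 without Abl1ko/IL3+ replicate 1. With 2 libraries against 2, the exact permutation test, two-sided, gave p = 0.333, the smallest it can give, and 0.5 adjusted over the 3 shares. The genes whose levels over the 4 libraries lay nearest to those of the factors, among 9238 genes with 10 CPM or more, were Rap1a for Foxo3 and Cwc25 for Foxo4 (distance of centred log2 CPM 0.0483 and 0.0380). Over only 4 libraries and among so many genes, a close match can arise without any link between the genes.

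**Figure D1:**
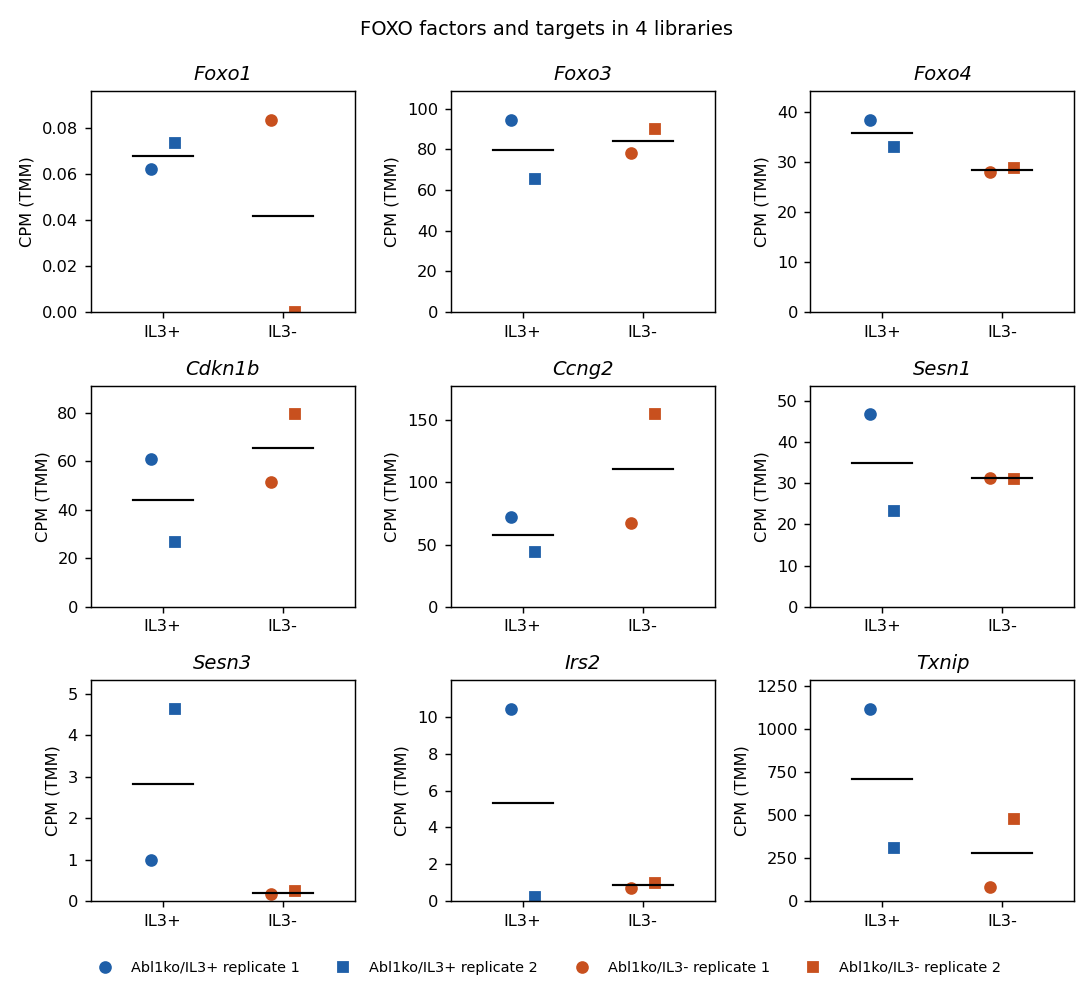
Levels of the 9 FOXO genes in CPM after TMM scaling (y axis, each panel from 0 on its own scale) in Abl1ko/IL3+ (IL3+, blue) and Abl1ko/IL3- (IL3-, orange) libraries. Circles are replicate 1, squares replicate 2 and lines the group means; the groups do not overlap for Foxo4 and Sesn3.

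Cdkn1b and Ccng2, the targets that slow the cell cycle, had higher group means without IL-3, but their groups overlapped. Cdkn1b (chromosome 6, 134920401 to 134925513) encodes the cyclin-dependent kinase inhibitor p27. It stood at 60.9 and 26.8 CPM with IL-3 and at 51.5 and 79.4 CPM without it, a log2 fold change of 0.58 (SE 0.51, adjusted p = 0.931 in the edgeR test). Ccng2 (chromosome 5, 93267257 to 93276231) encodes cyclin G2, an atypical cyclin linked with arrest. Its level was 71.8 and 43.9 CPM with IL-3 and 67.3 and 155 CPM without it, with a log2 fold change of 0.94 (SE 0.53, adjusted p = 0.874 in the edgeR test). Abl1ko/IL3- replicate 2, with the highest neutrophil marker sum (5675 CPM), was the highest library for both genes, and Abl1ko/IL3+ replicate 2 the lowest. Without Abl1ko/IL3- replicate 2 the log2 fold change of Ccng2 was 0.22, and without Abl1ko/IL3+ replicate 2 that of Cdkn1b was 0.10.

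Of the sestrins, which hold back mTORC1 and limit oxidative stress, only Sesn3 had groups that did not overlap. Sesn3 (chromosome 9, 14275067 to 14333101) was covered by 65 and 252 counts in the Abl1ko/IL3+ replicates, against 8 and 15 in those without IL-3. In CPM these were 1.01 and 4.63 against 0.167 and 0.258, so both Abl1ko/IL3- libraries lay below both Abl1ko/IL3+ libraries. The log2 fold change of Sesn3 was -3.71 (SE 1.004, unadjusted p = 0.0142 and adjusted p = 0.727 in the edgeR test), and between -4.41 and -2.23 without any single library. DESeq2's Wald test gave Sesn3 an adjusted p of 0.0248, and it was the only one of the genes past that threshold. It was a low transcript throughout, at 0.00862 to 0.242 FPKM. Sesn1 (chromosome 10, 41809935 to 41908424), also a target of p53, was at 46.7 and 23.2 CPM with IL-3 and at 31.3 and 31.0 CPM without it, and its Abl1ko/IL3- libraries again lay between those with IL-3. The log2 fold change of Sesn1 was -0.16 (SE 0.45, adjusted p = 0.985 in the edgeR test), and 0.44 without Abl1ko/IL3+ replicate 1. Sesn2, from the list of further targets, was at 84.2 and 68.4 CPM with IL-3 and at 69.9 and 98.5 CPM without it.

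Irs2 and Txnip, which link FOXO to insulin signalling and glucose uptake, varied strongly within groups. Irs2 (chromosome 8, 10984681 to 11008458) encodes an adaptor between growth factor receptors and PI3K. It had 671 and 12 counts in the Abl1ko/IL3+ replicates, against 34 and 59 in those without IL-3. Abl1ko/IL3+ replicate 1 thus alone stood high, and its replicate was the lowest of the 4 libraries. The high library also had the highest sums of mast cell and basophil markers (1443 CPM) and of macrophage markers (313 CPM). Of the former, Cpa3, Fcer1a, Gata2 and Prss34 were highest there, but Mcpt8 and Ms4a2 lowest (19.0 and 1.85 CPM). A link of Irs2 with these markers was not tested. The log2 fold change of Irs2 was -2.62 (SE 1.62, adjusted p = 0.893 in the edgeR test), and 1.97 without Abl1ko/IL3+ replicate 1. Txnip (chromosome 3, 96557957 to 96561883) encodes an arrestin-like protein that binds thioredoxin and lowers glucose uptake. It was the most abundant of the genes per length, at 344 and 79.1 FPKM with IL-3 and 22.98 and 142 FPKM without it. In CPM Txnip stood at 1117 and 308 with IL-3 and at 84.0 and 479.6 without it, and the groups overlapped. The log2 fold change of Txnip was -1.34 (SE 1.01, adjusted p = 0.912 in the edgeR test), and it ranged from -3.08 without Abl1ko/IL3- replicate 2 to -0.11 without Abl1ko/IL3+ replicate 1. Txnip shares 606 of its 3123 exon bases with the antisense gene Gm15441, which had 36 to 76 counts per library against 4020 to 72021 for Txnip, and Irs2 shares 162 of 6323 with the antisense transcript 9530052E02Rik.

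Ordered by mean FPKM over the 4 libraries, the genes ran from Txnip (147) through Ccng2 (13.96), Cdkn1b (10.8), Foxo3 (9.70), Foxo4 (8.15) and Sesn1 (7.47) to Irs2 (0.462), Sesn3 (0.0823) and Foxo1 (0.00516). The ranges of the neighbours from Ccng2 to Sesn1 overlapped, as did those of Irs2 and Sesn3. Txnip lay above all the others within each library, by the least in Abl1ko/IL3- replicate 1, where it stood at 22.98 FPKM beside 10.5 for Ccng2. That level of Txnip was under the 26.2 FPKM of Ccng2 in Abl1ko/IL3- replicate 2.

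Replicates of the same group often differed more than the groups did. Between the Abl1ko/IL3+ replicates the fold in CPM was 47.2 for Irs2, 4.596 for Sesn3, 3.63 for Txnip, 2.27 for Cdkn1b and 2.01 for Sesn1. The median over the 8 genes tested was 2.14, beside 1.74 for all genes tested. Between the Abl1ko/IL3- replicates the median was 1.48, beside 1.30 for all genes, with the largest fold for Txnip (5.71) and Ccng2 (2.30). Only for Foxo4 (1.26) and Sesn3 (13.3) was the fold between group means above that between the replicates of both groups. Abl1ko/IL3+ replicate 1 was the highest library for 5 of the 8 genes and Abl1ko/IL3+ replicate 2 the lowest for 5. Foxo3, Sesn1 and Irs2 had both Abl1ko/IL3- libraries between these, a pattern that 28% of all genes tested showed.

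**Figure D2:**
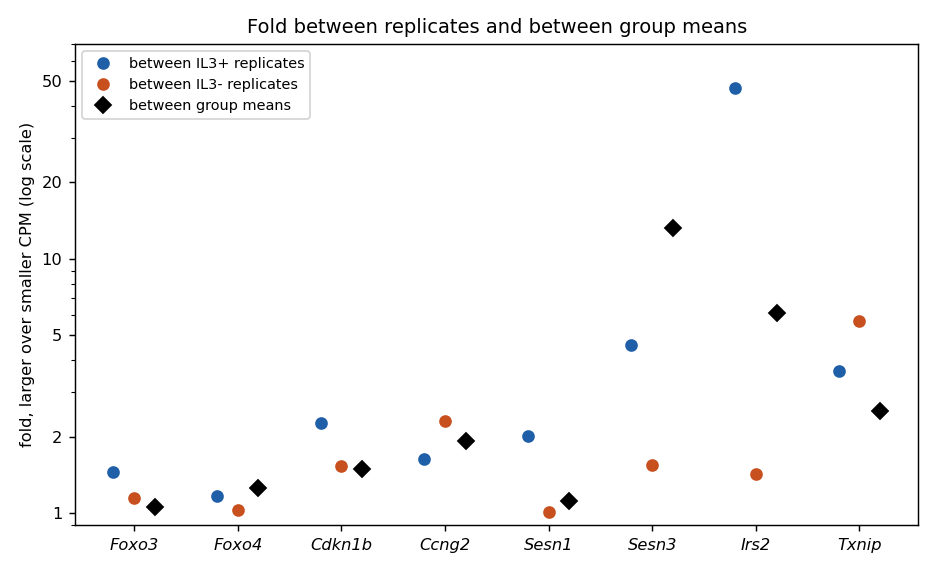
Fold in CPM, larger over smaller (y axis, log scale), between the Abl1ko/IL3+ replicates (blue), between the Abl1ko/IL3- replicates (orange) and between the group means (black) for the 8 FOXO genes tested. The black diamond is the highest symbol only for Foxo4 and Sesn3, and the fold between Abl1ko/IL3+ replicates of Irs2 reaches 47.2.

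Over the 8 genes that passed the expression filter, 3 had a positive and 5 a negative log2 fold change, and none had an adjusted p-value under 0.05 in edgeR's quasi-likelihood test. Over all 16535 genes tested the share called was 0%. In edgeR 1 of the 8, Sesn3, reached an unadjusted p-value under 0.05, against 5.91% of all genes, and DESeq2 called 1 of the 8, against 1.64%. The groups did not overlap, with the lower level in Abl1ko/IL3- cells, for 2 of the 8 genes, against 17.9% of all genes, and 0 of the 8 were higher without overlap, against 19.4%. The median log2 fold change was -0.25, beside -0.03 for all genes tested, and it became 0.41 without Abl1ko/IL3+ replicate 1. The 6 targets alone had a median of -0.75, with 2 positive and 4 negative values. Without Abl1ko/IL3+ replicate 1 that median was 0.87, with 4 positive and 2 negative values.

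The further FOXO target genes gave a like picture over a wider range of functions. Of 46 genes listed, 43 had a row and 39 were tested, 19 with a positive and 20 with a negative log2 fold change. Their median log2 fold change was -0.04, and none had an adjusted p-value under 0.05 in edgeR's test. Arrdc3, an arrestin-like relative of Txnip that acts on membrane receptors, was the only gene of that list with an unadjusted p-value under 0.05. It had 583 and 379 counts in the Abl1ko/IL3+ replicates, against 1404 and 1792 in those without IL-3, which is 9.04 and 6.97 CPM against 29.3 and 30.9 CPM. Both Abl1ko/IL3- libraries of Arrdc3 thus stood above those with IL-3, with a log2 fold change of 1.91 (SE 0.38, unadjusted p = 0.00408 and adjusted p = 0.726 in the edgeR test). Without any single library it was between 1.73 and 2.13, and DESeq2's Wald test gave an adjusted p of 0.00288. Depp1, the other gene named by the rule of non-overlap and size, had a log2 fold change of 1.30 at 0.0621 to 0.334 CPM, close to the floor, and this was 0.74 without Abl1ko/IL3+ replicate 1 and 2.26 without Abl1ko/IL3+ replicate 2. The groups did not overlap for 4 of the 39 genes with the higher level without IL-3 (10.3%, against 19.4% of all genes) and for 9 with the lower level (23.1%, against 17.9%).

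Among those genes, and named after their values were seen, the death gene Bcl2l11, which encodes BIM, was at 49.1 and 28.1 CPM with IL-3 and at 29.2 and 26.9 CPM without it. Bbc3, which encodes PUMA, was at 39.2 and 49.8 CPM and at 47.3 and 43.1 CPM. Neither gene separated the groups. Gadd45a, of the DNA damage response, was at 41.6 and 45.4 CPM with IL-3 and at 62.9 and 92.1 CPM without it, and Pik3ip1, an inhibitor of PI3K, at 19.2 and 29.6 CPM and at 36.6 and 35.1 CPM. Both were higher in each Abl1ko/IL3- library, with log2 fold changes of 0.83 and 0.56 (adjusted p = 0.850 and 0.899 in the edgeR test). The transcriptional co-regulator Cited2 was lower in each, at 399 and 314 CPM with IL-3 and 169 and 287 CPM without it (log2 fold change -0.65, adjusted p = 0.893 in the edgeR test). Cdkn2b, Fasl, Klf4 and G6pc did not pass the filter.

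**Figure D3:**
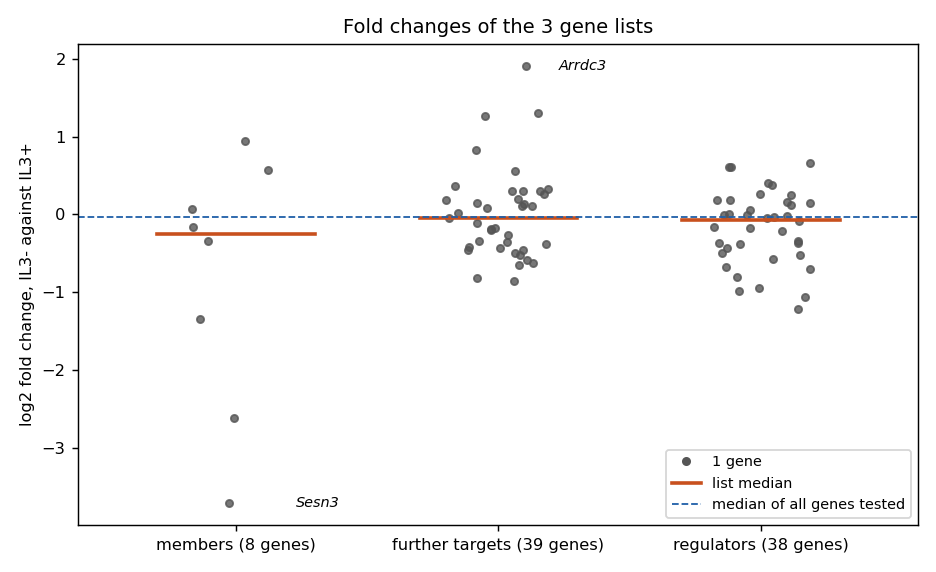
Log2 fold change in Abl1ko/IL3- (IL3-) against Abl1ko/IL3+ (IL3+) cells (y axis) of each gene tested, by list. Orange lines are list medians (-0.25, -0.04 and -0.07), the dashed blue line is the median of all genes tested (-0.03), and Sesn3 and Arrdc3, the genes with an unadjusted p-value under 0.05 in edgeR, are named; neither passed the adjusted threshold.

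The genes that act on FOXO proteins were AKT and other kinases, phosphatases, 14-3-3 proteins, ligases and acetylation enzymes. Of 40 genes listed, 39 had a row and 38 were tested, 14 with a positive and 24 with a negative log2 fold change. The median was -0.07 and none had an adjusted p-value under 0.05 in edgeR. An unadjusted one was reached by 0 of the 38, against 5.91% of all genes. The groups did not overlap for 6 of the 38 genes with the higher level without IL-3 (15.8%, against 19.4% of all genes). For 5 they did not overlap with the lower level (13.2%, against 17.9%). The genes higher in both Abl1ko/IL3- libraries were Xpo1, Crebbp, Stk4, Chuk, Prmt6 and Btg1, with log2 fold changes of 0.12 to 0.66. Xpo1, the exportin that carries FOXO proteins out of the nucleus, was at 113 and 112 CPM with IL-3 and at 155 and 145 CPM without it (log2 fold change 0.41, adjusted p = 0.904 in the edgeR test). Akt1 was at 206 and 186 CPM with IL-3 and at 145 and 158 CPM without it, a log2 fold change of -0.37 (SE 0.30, adjusted p = 0.920 in the edgeR test). Akt1 was thus lower in both Abl1ko/IL3- libraries. Phlpp1, a phosphatase of AKT, was at 11.9 and 16.3 CPM with IL-3 and at 5.81 and 8.42 CPM without it, a log2 fold change of -0.99 (adjusted p = 0.855 in the edgeR test). Xpo1, Akt1 and Phlpp1 were chosen for their roles, and the 6 genes above for not overlapping, after their values were seen.

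Usp7, a deubiquitinase that acts on FOXO proteins and on p53 control, was the only regulator that the rule of non-overlap and size named. It stood at 162 and 203 CPM with IL-3 and at 22.9 and 134 CPM without it, a log2 fold change of -1.22 (SE 0.84, adjusted p = 0.900 in the edgeR test), which was -0.45 without Abl1ko/IL3- replicate 1 and -2.99 without Abl1ko/IL3- replicate 2. Other genes of the list, named after their values were seen, were low in that library alone. The ubiquitin ligase subunit Skp2 had 0.669 CPM there and 14.1 to 20.1 CPM in the others, and the deacetylase Sirt1 1.55 CPM against 17.3 to 23.3 CPM. Being at least 5-fold under each other library was a feature of 101 of 10067 genes with 10 CPM in a library for Abl1ko/IL3- replicate 1, and of 42 to 87 genes for the other libraries.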

How the data were processed

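The authors removed ribosomal RNA, sequenced the rest on the Illumina HiSeq platform, used Rsubread to align the reads to GRCm38, counted reads per gene with featureCounts and deposited raw counts without normalization. The submitters' processing notes name STAR, Cuffdiff and mm10, with no role. FPKM values deposited by the authors gave the same gene length in each library when set against the counts (libraries agreed within a ratio of 1.05 for 99% of the genes that had at least 20 counts in each). Versions, strand and read-pair settings are not given in the sources used here. Among counts of 1 to 20, 57.7% to 59.9% were even, so a count may not be an independent fragment.

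Samples were grouped by title. The counts were fitted in edgeR 4.0.16 under R 4.3.3 (filterByExpr, TMM, quasi-likelihood F test, two-sided, Benjamini-Hochberg adjustment over all genes tested, threshold 0.05). DESeq2 1.42.0, limma 3.58.1 on log2(FPKM + 1) and log2(FPKM + 0.1), other filters and scaling, the replicate block and leaving out each library were alternatives. Standard errors come from the fold change and its F statistic. CPM used TMM library sizes. The steps were tested on simulated data. The labels call the replicates biological, and do not say whether they are separate clones. The genes and lists were chosen with earlier results of these data known. Named were all members, list genes with non-overlapping groups and a log2 fold change of at least 1, and those with an unadjusted p under 0.05. Other names are marked. Promoters come from RefSeq and exon overlaps from GENCODE M21, both on GRCm38. T cell and macrophage markers summed to 0.590 to 5.44 and 59.4 to 313 CPM.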

Additional observations from a re-analysis of the deposited data

How the results depend on the processing

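In edgeR the number of all genes past the adjusted threshold was 0, and it was 271 with DESeq2 and 0 to 15 without a single library, the 15 without Abl1ko/IL3- replicate 1. For the FOXO genes the number was 0 of 8, and 1 with DESeq2 (Sesn3). For the further targets it was 0 of 39, and 1 with DESeq2 (Arrdc3). It was 0 for the regulators in each fit. With library size only and with limma on FPKM 0 genes passed. No filter gave 0 of 9 FOXO genes and 0 of 43 further targets, and at least 10 counts in every library gave 0 of 7 and 0 of 36, with Sesn3 filtered out. The replicate block also gave 0 of 16535 genes and 0 of 8 FOXO genes, where 548 genes had an unadjusted p-value under 0.05 and Sesn3 a log2 fold change of -3.39. With limma the log2 fold change of Sesn3 was -1.08 on log2(FPKM + 0.1) and -0.18 on log2(FPKM + 1), beside -3.71 in edgeR. Deviations of same-numbered libraries had a correlation of -0.21 over the genes tested. A fit with crossed pairs, chosen after seeing the data, also gave 0 genes. The labels do not say that a number marks a shared clone or day, so the block was not used in the report.

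Without a single library the median log2 fold change ranged from -0.51 to 0.41 for the FOXO genes and from -0.35 to 0.17 for the further targets, and both signs changed without Abl1ko/IL3+ replicate 1. The median of the further targets, -0.04, was also positive without Abl1ko/IL3- replicate 1 (0.032), with no filter (0.018) and with limma on log2(FPKM + 1) (0.022), and that of the regulators became 0.088 without Abl1ko/IL3+ replicate 1. The log2 fold change ranged from -0.17 to 0.38 for Foxo3, -0.58 to 0.44 for Sesn1 and -3.59 to 1.97 for Irs2, while the sign held for Foxo4, Cdkn1b, Ccng2, Sesn3, Txnip, Arrdc3, Depp1 and Usp7. Those fits assume that the lone library of a group varies like the other group. The 0 calls do not show that the levels were equal, since 2 libraries a group leave wide errors, and the cause of the difference between edgeR and DESeq2 was not tested.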

Other observations

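Arrestin-like relatives of Txnip were looked up after the values of Txnip and Arrdc3 were seen. Arrdc2 stood at 16.2 and 18.5 CPM with IL-3 and at 37.8 and 29.6 CPM without it, higher in both Abl1ko/IL3- libraries (log2 fold change 0.96, standard error 0.36, unadjusted p = 0.0435 and adjusted p = 0.841 in the edgeR test). Arrdc1 stood at 35.2 and 47.7 CPM with IL-3 and at 62.0 and 45.5 CPM without it, and its groups overlapped. Arrdc4 had 7 counts in Abl1ko/IL3+ replicate 1 and 0 in the other libraries.

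Mlxip, which encodes MondoA, a glucose sensor known to drive Txnip, had 677 and 1774 counts in the Abl1ko/IL3+ replicates, against 85 and 4247 in those without IL-3. Its lowest library, Abl1ko/IL3- replicate 1 (1.78 CPM, beside 10.5 to 73.2 CPM in the others), was also that of Txnip. In that library 101 of 10067 genes lay at least 5-fold under each other library. The highest library of Mlxip was Abl1ko/IL3- replicate 2 (73.2 CPM), whereas that of Txnip was Abl1ko/IL3+ replicate 1. A link between these genes was not tested. Txn1, which encodes the thioredoxin that Txnip binds, was at 205 and 527 CPM with IL-3 and at 436 and 425 CPM without it. Abl1ko/IL3+ replicate 1, the highest library for Txnip, was the lowest for Txn1.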
